A study of Homo sapiens with 12 samples.

Results

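The HOX genes are the homeobox transcription factor genes of the HOXA, HOXB, HOXC and HOXD clusters. They were taken as every gene in the count tables whose symbol is HOX followed by a cluster letter from A to D and a number, which gave 39 of 23228 listed genes, with 11 in HOXA, 10 in HOXB, 9 in HOXC and 9 in HOXD. Their messenger RNA was followed in C4.2B, an established castration-resistant human prostate cancer line derived from LNCaP. PolyA RNA-seq had been made from 12 libraries in 4 arms of 3 plates, called A, B and C. DMSO received vehicle, GDC received 0.5 µM of the PI3K inhibitor GDC-0941 for 24 h, and GSK received 5 µM of the EZH2 inhibitor GSK126 during 6 days of pretreatment and the same 24 h. COMBO received the pretreatment and then both agents. All arms spent the 24 h in medium with 10% charcoal-stripped serum, which is low in androgens, and all came from this single line. Exposure to GSK126 was therefore longer than exposure to GDC-0941.

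HOX proteins set positional identity along the body axis, and the order of the genes in a cluster follows the order of their expression from head to tail. Paralogue groups carry the same number in different clusters, with low numbers at the 3′ end of a cluster and high numbers at the 5′ end. HOX clusters are classic targets of Polycomb repressive complex 2, whose catalytic subunit EZH2 places 3 methyl groups on lysine 27 of histone H3, a mark of silent chromatin. The comparison of GSK with DMSO asks how HOX transcripts stand after EZH2 is inhibited, and COMBO adds PI3K inhibition.

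On hg38 the GENCODE genes of the HOXA cluster span chr7:27092993-27200091 on the minus strand, HOXB spans chr17:48528526-48728750 on the minus strand, HOXC spans chr12:53938831-54056030 on the plus strand and HOXD spans chr2:176092721-176190907 on the plus strand. In GENCODE 24 of the 39 genes share exon bases with another gene. Of these, 10 do so with a gene on the same strand and 20 with an antisense gene. The annotation and use of strand in the counting were not stated, so reads of those genes are uncertain in part. Several of the antisense genes, HOXA10-AS, HOXA-AS2 and HOXB-AS3 among them, were not listed under those names in the counts. RefSeq gives HOXC4 and HOXC5 the same start, and the bases before it lie within a GENCODE exon of HOXC6. A separate HOXA10-HOXA9 read-through gene was listed at 0 counts in all 12 libraries.

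Polycomb complexes are recruited in vertebrates to DNA rich in CG dinucleotides, so the upstream sequences are shown for paralogue groups 4 and 13, whose members took different directions below. RefSeq (GRCh38.p14) gave windows of 250 bases upstream of a start for 20 of the 39 genes, 27 windows in all. HOXB4, HOXB13 and HOXC13 had no window, so both groups are shown only in part. CG dinucleotides numbered 19 in the median HOX window and 11 in the median of all 35116 windows. The HOXC4 window (chr12:54016638-54016887, plus strand) holds 14 and lies wholly within a HOXC6 exon of GENCODE, so its letters are not printed. The sequences run 5′ to 3′ on the strand of the gene with CG in capitals. They are the HOXA4 window at chr7:27130781-27131007 on the minus strand with 23 CG in the 227 bases outside its annotated exon, HOXD4 at chr2:176151300-176151549 on the plus strand with 4, HOXA13 at chr7:27200092-27200341 on the minus strand with 40, and HOXD13 at chr2:176092471-176092720 on the plus strand with 21.
HOXA4: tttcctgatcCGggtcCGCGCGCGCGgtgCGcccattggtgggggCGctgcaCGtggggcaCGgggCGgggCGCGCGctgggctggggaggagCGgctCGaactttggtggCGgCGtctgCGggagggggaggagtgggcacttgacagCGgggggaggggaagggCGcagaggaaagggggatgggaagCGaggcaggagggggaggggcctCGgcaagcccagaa
HOXD4: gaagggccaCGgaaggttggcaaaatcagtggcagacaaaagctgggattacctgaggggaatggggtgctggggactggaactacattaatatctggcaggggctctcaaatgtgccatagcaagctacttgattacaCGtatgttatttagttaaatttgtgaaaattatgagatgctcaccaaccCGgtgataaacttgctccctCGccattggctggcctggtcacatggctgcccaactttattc
HOXA13: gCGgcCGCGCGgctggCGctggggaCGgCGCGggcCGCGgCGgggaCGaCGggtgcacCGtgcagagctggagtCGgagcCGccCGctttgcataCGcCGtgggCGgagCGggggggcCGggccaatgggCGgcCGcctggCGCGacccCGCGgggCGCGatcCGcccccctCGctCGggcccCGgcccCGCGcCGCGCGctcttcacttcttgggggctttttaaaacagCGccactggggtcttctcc
HOXD13: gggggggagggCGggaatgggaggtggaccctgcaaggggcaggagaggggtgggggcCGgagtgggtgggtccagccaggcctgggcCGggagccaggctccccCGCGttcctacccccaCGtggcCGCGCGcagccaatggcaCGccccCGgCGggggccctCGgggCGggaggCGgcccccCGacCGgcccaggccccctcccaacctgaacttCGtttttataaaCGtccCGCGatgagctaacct
In GSK, as described below, HOXA4 fell, HOXA13 rose, HOXD13 did not pass the test and HOXD4 gave 0 reads. The letters TATAAA, on either strand, were in 18.5% of HOX windows and 10.7% of all windows, and the HOX and PBX motif TGATTNAT in 7.41% and 2.48%. The E-box CACGTG, which contains a CG, was in 29.6% and 6.34%. These shares are descriptions of letters only.

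Gene counts ranged from 8785218 to 44437751 per library, and levels are given as CPM, a gene's count relative to the TMM-scaled total of its library, multiplied by the same constant in all libraries. Reads that HTSeq assigned to no feature, which need not lie outside genes, made up 14.2% of reads in DMSO and 21.8% in COMBO on average. The part of this difference in the results was not tested. Prostate luminal markers were abundant in every library (10 of 10 genes detected), with a mean summed level of 3453 CPM under DMSO, 4987 under GDC, 4679 under GSK and 6091 under COMBO, whereas the 3 basal markers summed to at most 0.355 CPM and the 4 leukocyte markers to at most 0.329 CPM. VWF, which carries the endothelial list, was at 2.97 CPM in DMSO and 5.71 in GSK. The T cell marker CD3E was at 0 in all 12 libraries. The part of any of these markers in the HOX results was not tested. The 5 fibroblast markers summed to 10.3 to 11.7 CPM in DMSO and 26.1 to 48.4 CPM in GSK and COMBO, almost wholly from COL1A1, while DCN, LUM and COL1A2 were at 0 in DMSO and GDC. As the libraries are bulk RNA, a change in the share of cells that express a gene and a change per cell cannot be told apart. EZH2 transcripts fell from 105 CPM in DMSO to 56.3 in GSK and 34.9 in COMBO, which does not measure the activity of the enzyme. The 3 plates of an arm were seeded from one cell line, so p-values measure the spread between plates.

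In vehicle, HOX expression was dominated by HOXB13, the posterior HOXB gene that marks the prostate lineage and binds with the androgen receptor. Per kilobase of exon its level was 159 ± 11.3 CPM per kb in DMSO (SD, n = 3), followed by HOXA10 at 20.7 ± 1.24, HOXC13 at 15.1 ± 0.513, HOXC9 at 11.5 ± 0.312 and HOXC6 at 10.9 ± 0.0442. The order below HOXB13 depends on the exon length used, which here is the union of all annotated exons. By the canonical transcript HOXA10 was at 30.1, HOXC6 at 22.9, HOXC13 at 15.1 and HOXC9 at 12.99 CPM per kb. By union length HOXB9 at 1.70 ± 0.107 and HOXC8 at 1.66 ± 0.222 CPM per kb did not differ beyond their spread. Most of the HOXD cluster was silent, with HOXD13 at 0.785 ± 0.0486 CPM per kb the only HOXD gene above a trace. In total 26 of the 39 genes had a read in every DMSO library and 20 had a mean of at least 1 CPM there.

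Summed over genes, the clusters moved apart when GSK126 was present. HOXC went from 114 ± 1.56 CPM in DMSO to 252 ± 13.4 under GSK and 257 ± 15.2 under COMBO (SD, n = 3), while its share of all HOX counts from 15.5% to 32.5% and 37.8%. The HOXA sum went the other way, from 122 ± 4.77 to 101 ± 3.54 and 89.0 ± 6.53 CPM, and the HOXB sum from 499 ± 34.6 to 420 ± 17.4 and 331 ± 6.75 CPM. HOXA10 accounts for the lower HOXA sum, and the other 10 HOXA genes together were at 45.2 ± 0.343 CPM in DMSO, 47.5 ± 2.01 in GSK and 50.6 ± 3.70 in COMBO. The HOXB sum is mostly HOXB13, and the other 9 HOXB genes together went from 15.3 ± 0.438 CPM in DMSO to 23.4 ± 2.22 in GSK. HOXD was at 1.92 ± 0.0900 CPM in DMSO and 2.44 ± 0.880 in GSK. The HOX total was 737 ± 36.1 CPM under DMSO, 754 ± 12.4 under GDC, 775 ± 25.7 under GSK and 680 ± 23.5 under COMBO. Without HOXB13 the other 38 HOX genes went from 253 ± 6.80 CPM in DMSO to 379 ± 15.1 in GSK and 376 ± 17.5 in COMBO. With library totals alone the HOX total was 688 in DMSO, 805 in GSK and 733 in COMBO, so that COMBO moved from below DMSO to above it. Scaling by library totals alone gave the same order for HOXC (106, 262 and 277 CPM in DMSO, GSK and COMBO) and put HOXA at 114, 104 and 95.9 CPM. It put HOXB at 466 ± 32.8, 436 ± 20.1 and 356 ± 7.02 CPM, where GSK did not differ from DMSO beyond the spread.

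**Figure D1:**
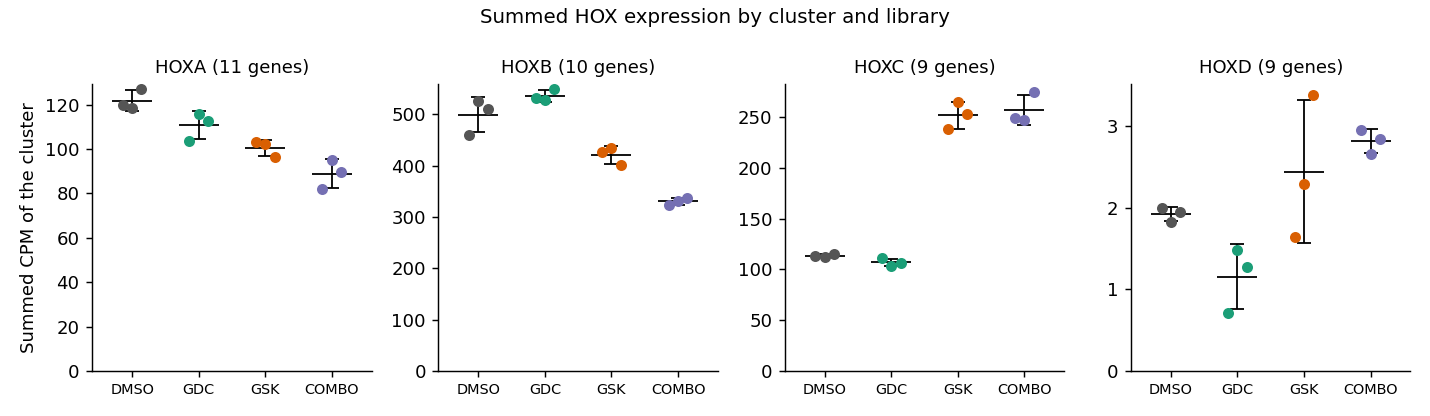
Summed CPM of each HOX cluster (y axis, linear from 0) in each of the 12 libraries, by arm (x axis), with 1 point per library and the mean ± SD as bars. The HOXC libraries of GSK and COMBO lie at 238 CPM or more, above DMSO at 113 to 115, while HOXA and HOXB are lower in COMBO than in DMSO.

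GSK126 alone raised 14 and lowered 4 of the 24 HOX genes with enough counts to test (edgeR, adjusted p below 0.05 by the quasi-likelihood test over 14189 genes). Across all genes tested, 40.0% were higher and 35.8% lower in that comparison, so the share of HOX genes that fell was below and the share that rose above that of genes at large. Outside the HOXC cluster 7 of 16 tested HOX genes rose and 4 fell. Of tested genes, 7 of 8 rose in HOXC, 5 of 6 in HOXB, 2 of 9 in HOXA and 0 of 1 in HOXD. The larger share that rose thus lay in HOXC and HOXB. The median log2 fold change was 0.49 for the HOX genes and 0.06 for all genes. HOXA2, HOXB5 and HOXC10 passed the filter without reaching its level in DMSO, and of the 21 genes at that level in DMSO 12 rose and 4 fell. With library totals alone, which shift the median of all genes up by 0.15, 15 HOX genes were higher and 4 lower, and 6971 of all genes higher and 3935 lower.

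In the HOXC cluster 7 of the 8 tested genes were higher in GSK and none lower. The 7 include HOXC10, which passed the filter only through GSK and COMBO. HOXC4, a gene used in anterior body regions and in lymphocytes, was at 2.84, 3.48 and 4.16 CPM in DMSO A, B and C and at 19.5, 25.0 and 20.6 in GSK. Its GDC libraries were at 3.36, 5.05 and 4.36 CPM and its COMBO libraries at 28.3, 24.3 and 26.3. All 6 libraries with GSK126 stood far above all 6 without it. HOXC4 rose by 2.55 on the log2 scale in GSK (SE 0.137, 5.84-fold, adjusted p = 1.53e-12). Its rise was 2.81 in COMBO (SE 0.129, 7.01-fold, adjusted p = 4.99e-14), the largest changes among the tested HOX genes in both comparisons.

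HOXC5, which has the same RefSeq start as HOXC4, and HOXC6, which has a GENCODE exon over the bases before that start, moved less. HOXC6, a gene known for high expression in prostate tumors, was at 37.9, 37.7 and 38.0 CPM in DMSO, against 41.8, 36.1 and 34.1 under GDC, 69.4, 73.2 and 66.1 under GSK and 69.2, 69.5 and 76.3 under COMBO. HOXC6 rose by 0.88 in GSK (SE 0.0674, adjusted p = 3.53e-10), with no overlap of the arms. HOXC5 was at 4.52, 3.92 and 3.49 CPM in DMSO, against 3.45, 3.02 and 2.61 under GDC, 5.71, 4.82 and 4.15 under GSK and 6.96, 4.97 and 6.48 under COMBO. Its GSK libraries overlapped DMSO, and the log2 fold change of 0.34 did not pass the test (SE 0.176, adjusted p = 0.0847), although without GSK replicate C it was 0.45 (adjusted p = 0.0450). In COMBO HOXC5 rose by 0.67 (SE 0.156, adjusted p = 6.15e-04). Among the counts of these 3 genes HOXC4 took 7.70% ± 1.42 under DMSO, 9.65% ± 2.41 under GDC, 22.5% ± 1.81 under GSK and 25.3% ± 1.62 under COMBO (SD, n = 3), so their balance shifted along with their sum. In GENCODE HOXC6 shares exon bases with HOXC4 and HOXC9, so how reads in those bases were counted is uncertain. Reads that HTSeq set aside as ambiguous between genes made up 1.97% of reads in DMSO and 1.68% in COMBO on average.

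The more 5′ HOXC genes rose together. HOXC9, a thoracic patterning gene, was at 18.7, 19.7 and 19.0 CPM in DMSO, against 17.9, 17.9 and 17.6 under GDC, 47.6, 46.7 and 47.7 under GSK and 43.3, 46.4 and 50.7 under COMBO. HOXC13, which drives hair keratin genes in skin, was at 36.1, 34.1 and 36.3 CPM in DMSO, against 31.2, 29.5 and 35.1 under GDC, 74.7, 91.4 and 88.1 under GSK and 74.8, 75.2 and 86.2 under COMBO. Both were higher in every library with GSK126 than in any library without it, by 1.30 (SE 0.0663, adjusted p = 6.91e-13) and 1.26 (SE 0.0779, adjusted p = 1.26e-11) on the log2 scale in GSK. HOXC8, which patterns the brachial region, was at 3.58, 3.87 and 4.62 CPM in DMSO, against 3.003, 2.65 and 3.42 under GDC, 6.59, 7.74 and 7.96 under GSK and 7.25, 8.07 and 9.24 under COMBO. HOXC12 was at 9.15, 9.45 and 9.55 CPM in DMSO, against 10.1, 9.30 and 8.58 under GDC, 13.4, 15.3 and 16.9 under GSK and 18.0, 18.3 and 18.6 under COMBO. HOXC8 rose by 0.84 (SE 0.145, adjusted p = 3.16e-05) and HOXC12 by 0.70 (SE 0.0973, adjusted p = 2.03e-06) in GSK, again without overlap of the arms. HOXC10, a lumbar gene with only 0.210 to 0.289 CPM in DMSO and 0.790 to 1.44 in GSK, rose by 2.14 (SE 0.414, adjusted p = 1.06e-04). As HOXC10 was tested only through the arms in which it was high, a rise was favoured by the filter.

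**Figure D2:**
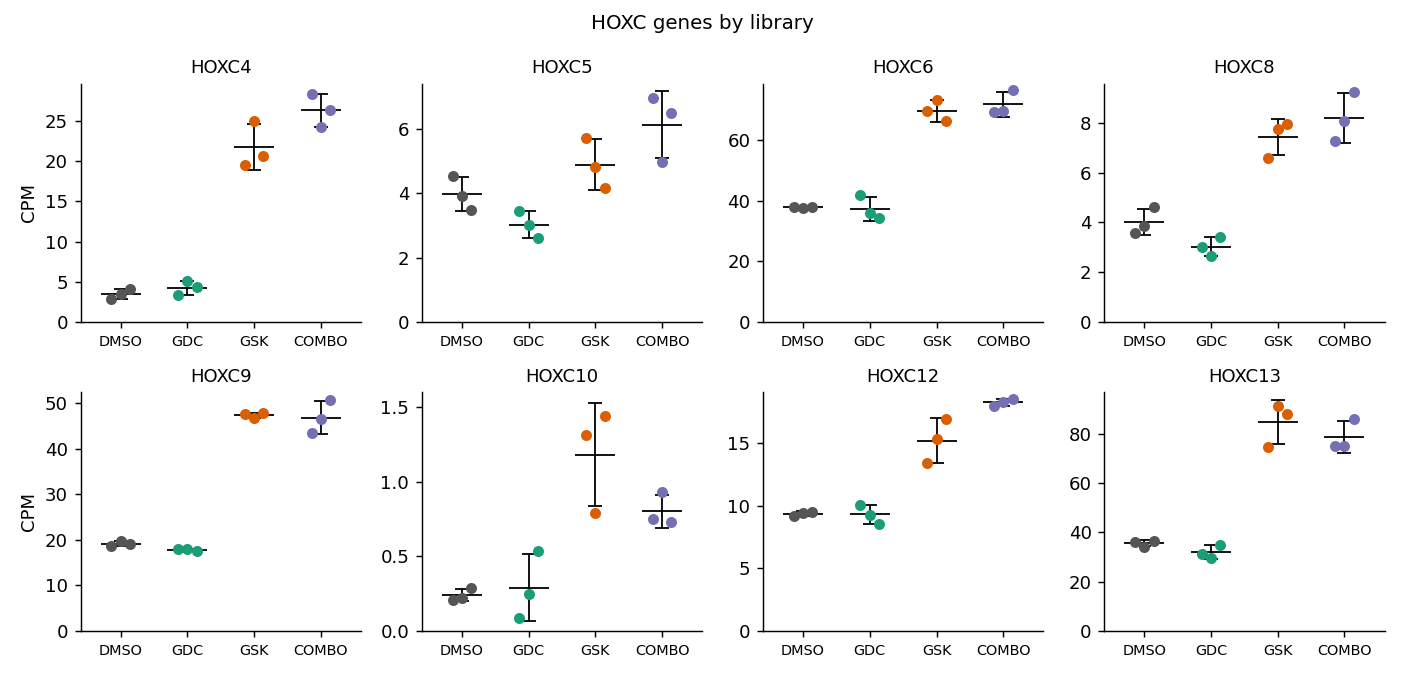
CPM (y axes, linear from 0) of the 8 tested HOXC genes in each library by arm (x axes), with 1 point per library and the mean ± SD as bars. For all but HOXC5 the GSK points lie above every DMSO point, and HOXC4 has the largest step, from 2.84 to 4.16 CPM in DMSO to 19.5 to 25.0 in GSK.

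In HOXB 5 of 6 tested genes rose in GSK and 1, HOXB13, fell. The 5 include HOXB5, which passed the filter only through GSK and COMBO. HOXB3, an anterior gene of the hindbrain and of blood progenitors, was at 0.947, 0.829 and 1.03 CPM in DMSO, against 0.707, 1.23 and 1.14 under GDC, 2.75, 2.92 and 1.95 under GSK and 2.67, 2.35 and 2.98 under COMBO. HOXB6 was at 2.10, 1.49 and 1.59 CPM in DMSO, against 1.59, 1.35 and 1.94 under GDC, 2.75, 3.48 and 2.63 under GSK and 3.89, 3.33 and 3.71 under COMBO. HOXB9 was at 4.10, 4.64 and 4.47 CPM in DMSO, against 4.86, 5.91 and 5.29 under GDC, 6.92, 7.74 and 6.61 under GSK and 8.99, 7.98 and 9.02 under COMBO. In each of these 3 genes the GSK and COMBO libraries were above those of DMSO and GDC. HOXB3 rose by 1.39 (SE 0.244, adjusted p = 3.56e-05), HOXB6 by 0.85 (SE 0.205, adjusted p = 9.52e-04) and HOXB9 by 0.67 (SE 0.129, adjusted p = 9.45e-05). In GENCODE HOXB3 shares exon bases with HOXB4 and HOXB6, so how reads in those bases were counted is uncertain.

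HOXB5 and HOXB7 rose with less support. HOXB7 was at 7.36, 7.52 and 8.01 CPM in DMSO, against 6.01, 7.94 and 8.98 under GDC, 9.44, 9.87 and 9.32 under GSK and 9.86, 11.1 and 10.3 under COMBO. Its GSK libraries lay above DMSO by 0.31 on the log2 scale (SE 0.123, adjusted p = 0.0294), which held in 7 of 19 alternative fits and was 0.24 to 0.33 without a single library of DMSO, GDC B, GSK A, GSK B or COMBO where the call was lost (adjusted p = 0.0530 to 0.153). HOXB5 rose by 1.05 from 0.316 to 0.649 CPM in DMSO (SE 0.352, adjusted p = 0.0108), and without GSK replicate B its change was 0.70 (adjusted p = 0.144). As HOXB5 was tested only through the arms in which it was high, a rise was favoured by the filter.

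HOXB13 moved against the rest of its cluster. It was at 445, 511 and 495 CPM in DMSO, against 517, 510 and 531 under GDC, 402, 409 and 380 under GSK and 296, 305 and 309 under COMBO. Its GSK libraries were below all DMSO libraries and its COMBO libraries below all GSK libraries, while GDC overlapped DMSO. HOXB13 fell by 0.29 on the log2 scale in GSK (SE 0.0479, adjusted p = 1.89e-05) and, when both agents were given, by 0.68 (SE 0.0478, adjusted p = 5.81e-11). Over 19 alternative fits its change in GSK ranged from -0.39 to -0.13 and stayed past the threshold in each. PRAC, a prostate-enriched small gene next to HOXB13, fell in GSK as well, by 0.74 from 7.38 CPM in DMSO to 4.58 (SE 0.134, adjusted p = 5.09e-05). Unlike HOXB13, PRAC rose in GDC by 0.53 (adjusted p = 8.24e-04) and was higher in COMBO than in GSK by 0.44 (adjusted p = 0.0142).

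HOXA was mixed, with 2 of 9 tested genes higher and 3 lower in GSK. HOXA10, known from the uterus and from blood progenitors, was at 74.3, 73.6 and 81.9 CPM in DMSO, against 56.9, 68.6 and 64.3 under GDC, 54.0, 54.0 and 51.3 under GSK and 35.6, 41.4 and 38.1 under COMBO. HOXA5, a gene needed in lung development, was at 11.6, 12.4 and 10.9 CPM in DMSO, against 13.7, 14.9 and 12.4 under GDC, 8.46, 7.98 and 7.03 under GSK and 9.52, 11.04 and 9.90 under COMBO. HOXA4 was at 4.21, 4.70 and 4.62 CPM in DMSO, against 3.53, 4.74 and 4.69 under GDC, 3.73, 2.53 and 3.05 under GSK and 2.61, 3.19 and 2.91 under COMBO. The GSK libraries of all 3 genes were below those of DMSO. HOXA10 fell by 0.54 (SE 0.0703, adjusted p = 8.83e-07), HOXA5 by 0.56 (SE 0.115, adjusted p = 1.75e-04) and HOXA4 by 0.58 (SE 0.172, adjusted p = 0.00492).

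Towards the 5′ end of HOXA, HOXA13 and, with less support, HOXA11 were higher in GSK. HOXA13, which shapes the distal limb and the urogenital tract, was at 9.89, 5.36 and 7.79 CPM in DMSO, against 6.45, 8.13 and 7.10 under GDC, 9.44, 13.2 and 11.9 under GSK and 12.01, 15.8 and 14.6 under COMBO. GSK A lay under DMSO A, yet HOXA13 rose by 0.65 (SE 0.169, adjusted p = 0.00184). HOXA11 was at 11.6, 12.3 and 12.2 CPM in DMSO, against 13.2, 11.7 and 13.9 under GDC, 15.8, 14.2 and 12.9 under GSK and 12.6, 13.6 and 12.7 under COMBO. Its rise of 0.24 in GSK (SE 0.0974, adjusted p = 0.0346) was small and fell short of the threshold in 14 of 19 alternative fits, among them all but 1 of the fits without a single library, where it was 0.12 to 0.22 (adjusted p = 0.0591 to 0.291).

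HOXA2, HOXA3 and HOXA6 did not pass the test in GSK or COMBO. HOXA3 was at 3.16, 3.48 and 3.80 CPM in DMSO, against 4.33, 3.14 and 3.69 under GDC, 4.50, 4.42 and 3.56 under GSK and 3.77, 3.73 and 5.02 under COMBO. HOXA6 was at 2.52, 3.21 and 2.81 CPM in DMSO, against 2.83, 2.77 and 3.02 under GDC, 2.97, 2.45 and 2.20 under GSK and 2.32, 2.48 and 2.84 under COMBO. Both overlapped DMSO in GSK and in COMBO, and the log2 fold changes in GSK were 0.21 (SE 0.173) for HOXA3 and -0.20 (SE 0.180) for HOXA6, so changes of this size could not be told from the spread. HOXA2 stood at 0.237 to 0.804 CPM over the 12 libraries and its change in GSK was -0.08 (SE 0.412, adjusted p = 0.865).

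**Figure D3:**
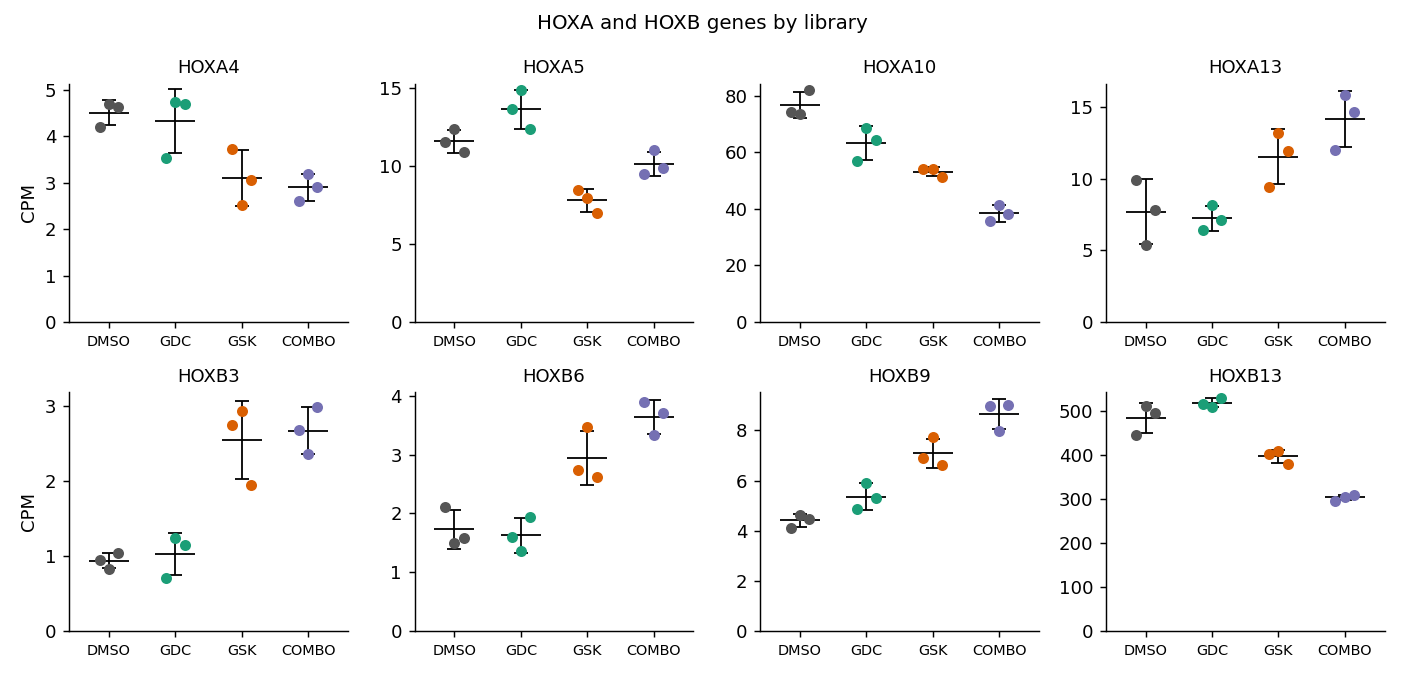
CPM (y axes, linear from 0) of 8 HOXA and HOXB genes in each library by arm (x axes), with 1 point per library and the mean ± SD as bars. HOXA4, HOXA5, HOXA10 and HOXB13 are lower in GSK than in DMSO, and HOXB13 and HOXA10 are lowest in COMBO at 296 to 309 and 35.6 to 41.4 CPM, whereas HOXA13, HOXB3, HOXB6 and HOXB9 have higher means in GSK and COMBO.

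HOXD13, the only HOXD gene tested and a partner of HOXA13 in the distal limb, was at 1.999, 1.77 and 1.92 CPM in DMSO, against 0.618, 1.48 and 1.21 under GDC, 1.54, 2.21 and 3.05 under GSK and 2.78, 2.44 and 2.69 under COMBO. GSK overlapped DMSO (log2 fold change 0.29, SE 0.245, adjusted p = 0.287), while COMBO lay above it without passing the test (0.47, SE 0.217, adjusted p = 0.0518). The COMBO change passed in 7 of the alternatives, among them the fits without GDC replicate A (0.46, adjusted p = 0.0400), GSK replicate A (0.46, adjusted p = 0.0483) and GSK replicate C (0.47, adjusted p = 0.0415).

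Over all clusters together, paralogue number did not order the changes. Over the 24 tested genes the paralogue number and the log2 fold change in GSK had a Pearson r of 0.04 and a Spearman rho of 0.05, a description across genes that share libraries. Within HOXA (9 genes) r was 0.22 and rho 0.12, and within HOXC (8 genes) -0.12 and -0.05. In COMBO these were 0.19 and 0.05 in HOXA and -0.32 and 0.07 in HOXC. Members of a paralogue group differed by cluster. In group 4 HOXC4 rose and HOXA4 fell, and HOXB4 (4 counts in all DMSO libraries together) and HOXD4 (0 counts) were too low to test. Group 13 split as well, with HOXA13 and HOXC13 higher, HOXB13 lower and HOXD13 not past the threshold. In group 6 HOXB6 and HOXC6 rose while HOXA6 gave -0.20, and in group 9 both tested genes, HOXB9 and HOXC9, rose.

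**Figure D4:**
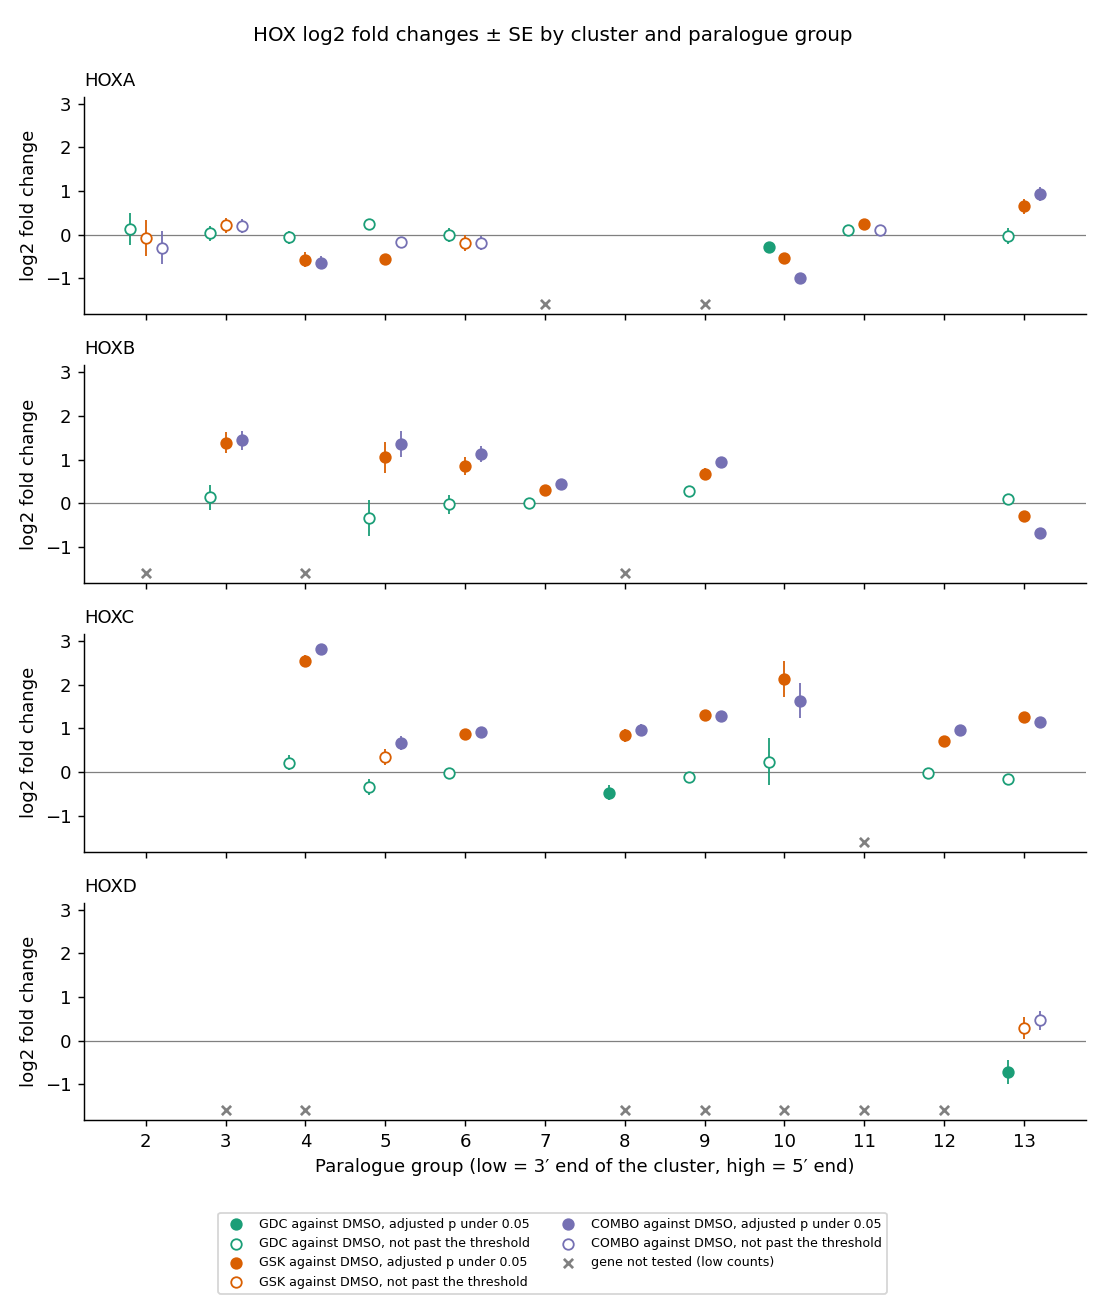
Log2 fold change ± SE against DMSO (y axis) of each tested HOX gene by paralogue group from 2 to 13 (x axis, 3′ to 5′ end) in the 4 clusters, for GDC, GSK and COMBO, with filled points for adjusted p under 0.05 and crosses for genes too low to test. All HOXC points of GSK and COMBO lie above 0, from 0.34 at HOXC5 in GSK to 2.81 at HOXC4 in COMBO, whereas HOXA4, HOXA5 and HOXA10 lie below 0.

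In COMBO 14 of the 24 genes rose and 3 fell against DMSO, compared with 43.3% higher and 39.2% lower among all genes tested. Of the 21 genes at the filter level in DMSO 12 rose and 3 fell. Outside HOXC 6 of 16 tested HOX genes rose and 3 fell, a share of rises not above that of all genes. Those clusters differed, with 5 of 6 tested genes higher in HOXB, 1 of 9 in HOXA and 0 of 1 in HOXD. All 8 tested HOXC genes were higher, by 0.67 (HOXC5) to 2.81 (HOXC4) on the log2 scale. The 5 HOXB genes that rose in GSK rose in COMBO too, by 0.44 (HOXB7, adjusted p = 0.00138) to 1.45 (HOXB3, adjusted p = 5.47e-06), and HOXA13 rose by 0.93 (adjusted p = 1.40e-05). HOXA10 fell by 1.001 (SE 0.0692, adjusted p = 3.92e-11) and HOXA4 by 0.64 (SE 0.156, adjusted p = 8.72e-04). HOXA5, lower in GSK, was at -0.17 in COMBO and not past the threshold (SE 0.101, adjusted p = 0.116), and without COMBO replicate B it was -0.26 (adjusted p = 0.0421). The other HOXC changes were 0.92 for HOXC6 (SE 0.0649), 1.28 for HOXC9 (SE 0.0637), 1.14 for HOXC13 (SE 0.0759), 0.96 for HOXC8 (SE 0.133), 0.95 for HOXC12 (SE 0.0896) and 1.63 for HOXC10 (SE 0.405), with adjusted p from 1.77e-13 for HOXC9 to 9.89e-04 for HOXC10. HOXB9 rose by 0.95, HOXB6 by 1.13 and HOXB5 by 1.37, with adjusted p from 2.51e-07 for HOXB9 to 3.60e-04 for HOXB5. Both HOXC10 and HOXB5 passed the filter only through the arms with GSK126. GSK and COMBO share the DMSO libraries, so their values against DMSO are not independent.

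With library totals alone 18 HOX genes were higher and 3 lower in COMBO, and 7473 of all genes higher and 4347 lower. The added calls included HOXA3 at 0.40, HOXA11 at 0.31 and HOXD13 at 0.68, and that scaling shifted the median of all genes by 0.21.

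Set against GDC, COMBO shows the effect of GSK126 in the presence of the PI3K inhibitor. Of the 24 genes 16 were higher and 4 lower, where 37.9% of all genes were higher and 38.0% lower. HOXC4 was higher by 2.59 (SE 0.135, adjusted p = 7.33e-13), HOXB5 by 1.71 (SE 0.359, adjusted p = 2.52e-04) and HOXC8 by 1.43 (SE 0.152, adjusted p = 4.73e-08). Of these, HOXB5 passed the filter only through the arms with GSK126. HOXB3, HOXC10 and HOXD13, also among the genes higher, were like HOXB5 under the filter level in GDC. For these genes a rise over GDC was favoured by the filter. The genes lower were HOXB13 at -0.78, HOXA10 at -0.72, HOXA4 at -0.58 and HOXA5 at -0.42. HOXD13, which fell in GDC against DMSO (-0.72) and was at 0.47 in COMBO without passing, was higher by 1.19 in COMBO than in GDC (adjusted p = 3.72e-04). With library totals the HOX split was the same, at 16 higher and 4 lower, while all genes went to 6864 higher and 4074 lower.

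Adding GDC-0941 to GSK126 changed few HOX genes. Against GSK, COMBO had 2 of 24 higher and 2 lower, against 19.0% and 26.9% of all genes. HOXB13 fell by 0.39 (SE 0.0482, adjusted p = 1.80e-06) and HOXA10 by 0.46 (SE 0.0745, adjusted p = 3.87e-05). HOXA5 rose by 0.39 (SE 0.118, adjusted p = 0.0104) and HOXC12 by 0.26 (SE 0.0909, adjusted p = 0.0273). HOXA5 was not past the threshold without GSK replicate C (0.31, adjusted p = 0.0674), nor HOXC12 without GSK replicate A (0.21, adjusted p = 0.0903) or COMBO replicate C (0.25, adjusted p = 0.0566). HOXC4, at 0.26 with an adjusted p of 0.0523, passed in most alternatives, with 0.27 to 0.41. Without COMBO replicate B 7 HOX genes passed, HOXC5 among them (0.51, adjusted p = 0.0160). All genes split into 3410 higher and 3113 lower with library totals, where HOX genes split into 4 and 2.

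HOXB13 was the 1 gene called for a departure from the sum of the single agents, and HOXC8 and HOXC5 joined it in several alternatives. The interaction, the change from GSK to COMBO less that from DMSO to GDC on the log2 scale, was -0.49 for HOXB13 (SE 0.0676, adjusted p = 3.04e-05), with the value of GDC against DMSO at 0.10 and that of COMBO against GSK at -0.39. Of the 24 genes 0 were higher and 1 was lower by this test, where 4.86% and 16.5% of all genes were. An unadjusted p under 0.05 was reached by 4 genes, and DESeq2 also called 0 higher and 1 lower. The other 3 were HOXC8 at 0.59 (adjusted p = 0.0522), HOXC5 at 0.67 (adjusted p = 0.0601) and HOXD13 at 0.90 (adjusted p = 0.0810). HOXC8 passed without DMSO replicate A, DMSO replicate B, GDC replicate C, COMBO replicate A or COMBO replicate B, at 0.68 to 0.76. HOXC5 passed without DMSO replicate C, GDC replicate A, GSK replicate A or COMBO replicate B, at 0.82 to 0.89. HOXD13 passed without GDC replicate B (1.24) or GSK replicate C (1.17). With the replicate block HOXC8 (0.57, adjusted p = 0.0417) and HOXC5 (0.69, adjusted p = 0.0352) passed, as they did with DESeq2 size factors, with no filter and with a filter at a mean of 1 CPM, and HOXC8 passed with library totals.

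GDC-0941 alone gave few calls among HOX genes. In edgeR 0 of 24 genes rose and 3 fell, against 20.0% and 20.0% of all genes, and DESeq2 called 0 higher and 2 lower. An unadjusted p under 0.05 was reached by 6 genes, HOXA5, HOXB9 and HOXB13 with positive and HOXA10, HOXC8 and HOXD13 with negative changes. HOXA10 fell by 0.28 (SE 0.0673, adjusted p = 0.00262), and all GDC libraries were below DMSO. HOXC8 fell by 0.47 (SE 0.164, adjusted p = 0.0271), but was at -0.35 without DMSO replicate C (adjusted p = 0.184) and -0.42 without GDC replicate B (adjusted p = 0.0932). HOXD13 fell by 0.72 (SE 0.268, adjusted p = 0.0391), a call lost without DMSO replicate A (-0.74, adjusted p = 0.0501), DMSO replicate C (-0.73, adjusted p = 0.106), GDC replicate A (-0.53, adjusted p = 0.138) or GDC replicate C (-0.79, adjusted p = 0.0635). It was also lost with DESeq2 (-0.78, adjusted p = 0.0582) and with the replicate block (-0.68, adjusted p = 0.0547). HOXD13 reached the filter level in every arm but GDC, so a fall in GDC was favoured by the filter. With library totals alone HOXA5 (0.28, adjusted p = 0.0305) and HOXB13 (0.13, adjusted p = 0.0291) were higher too, which made 2 higher and 3 lower, and all genes split into 3325 higher and 2354 lower. HOXC4 was at 0.22 (SE 0.174) and HOXC6 at -0.03 (SE 0.0701) in GDC, and neither passed. HOXC13, at -0.15, passed without GDC replicate C (-0.27, adjusted p = 0.0325) or GSK replicate A (-0.20, adjusted p = 0.0438). Without DMSO replicate C only HOXA10 was called.

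A change of at least 2-fold either way in addition to the test was met by 6 HOX genes in GSK (HOXB3, HOXB5, HOXC4, HOXC9, HOXC10 and HOXC13) and 8 in COMBO, of which HOXA10 alone was lower. Among all genes 21.9% and 31.1% met it. HOXB5 and HOXC10 passed the filter only through the arms with GSK126, and of the 21 genes at its level in DMSO 4 met it in GSK, and 5 higher and 1 lower in COMBO. It was met by 10 HOX genes in COMBO against GDC (21.8% of all genes), and by 0 in GDC (1.87%), in COMBO against GSK (2.97%) and in the interaction (1.33%). The 10 include HOXB3, HOXB5, HOXC10 and HOXD13, which were under the filter level in GDC.

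Genes with almost no reads in vehicle stayed close to silent. Counting the 3 DMSO libraries together, 12 HOX genes had at most 3 counts, namely HOXB1, HOXB2, HOXB8, HOXC11 and all HOXD genes but HOXD13, and 8 of these had 0. A pooled count of 3 corresponds to 0.0434 CPM for DMSO, 0.0706 for GDC, 0.0894 for GSK and 0.0561 for COMBO, so GSK could show the least. In GDC and in GSK 0 of the 12 had a read in every library, where 2.32% and 7.51% of the 7058 genes this low in DMSO did, and in COMBO 3 did, where 12.9% of those genes did. No test across genes was made on these counts.

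The 3 genes were HOXB8, HOXC11 and HOXD12. HOXB8, a gene of blood progenitors, had 0, 0 and 1 counts in DMSO, against 2, 1 and 0 under GDC, 1, 1 and 0 under GSK and 2, 3 and 6 under COMBO. Its pooled ratio of COMBO to DMSO was 14.2 (95% exact counting interval 2.07 to 612). HOXC11 had 0, 1 and 2 counts in DMSO, against 1, 0 and 0 under GDC, 0, 1 and 3 under GSK and 7, 3 and 2 under COMBO, a ratio of 5.17 (95% exact counting interval 1.40 to 28.6). HOXD12 had 0 counts in all libraries of DMSO, GDC and GSK and 1, 1 and 2 in COMBO. The 3 genes were picked for low counts in DMSO and reads in every COMBO library, so these ratios are descriptions with a direction fixed by that choice, and the intervals cover counting error only. HOXB8 and HOXC11 were at 0.229 and 0.228 CPM on average in COMBO.

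The HOXD cluster from HOXD1 to HOXD12 gave 2 counts with DMSO, 2 with GDC, 6 with GSK and 10 with COMBO over 3 libraries each. HOXB1 and HOXD9 had 0 counts in all 12 libraries. HOXD4 had 1 count, in GDC, and HOXD10 and HOXD11 1 each, in GSK. HOXD1 had 0 counts in DMSO and GDC, 2 in GSK and 3 in COMBO, HOXD3 had 1 in GSK and 1 in COMBO, and HOXD8 had 1 or 2 in each arm. HOXB2 had 3 pooled counts under DMSO, 1 under GDC, 0 under GSK and 3 under COMBO. Strong expression of these genes would have been seen at this depth, since a count of 0 in a single library allows at most 0.0721 to 0.329 CPM, depending on its depth. HOXA7 (16 pooled counts for DMSO, 6 for GDC, 11 for GSK and 9 for COMBO), HOXA9 (7, 2, 10 and 14) and HOXB4 (4, 1, 3 and 5) were low in every arm. For HOXA9, a leukemia-linked gene, the ratio of GSK to DMSO was 2.94 (95% exact counting interval 1.01 to 9.11) and that of COMBO to DMSO 2.59 (0.976 to 7.57). The reads of HOXA9 are uncertain, since in GENCODE it shares exon bases with MIR196B. On the opposite strand it shares bases with HOXA10-AS, which was not listed in the counts.

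**Figure D5:**
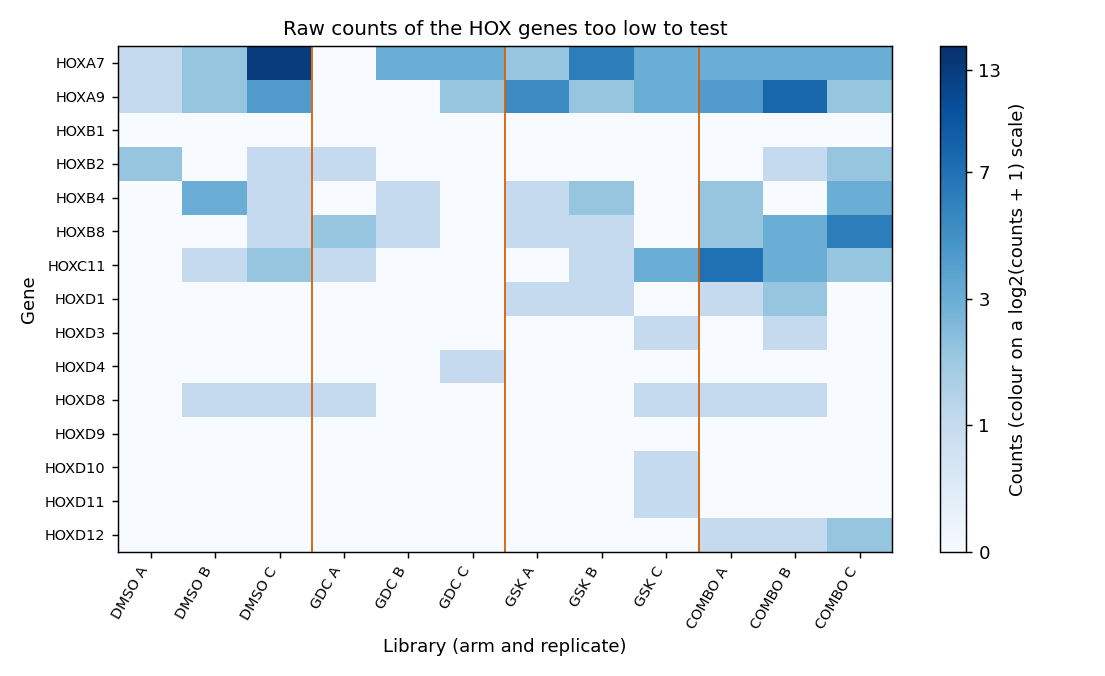
Raw counts (colour, log2 of count plus 1) of the 15 HOX genes too low to test, by gene (y axis) and library (x axis, arms divided by vertical lines). Most cells hold 0, the highest count is 13 at HOXA7 in DMSO C, the deepest library, and HOXB8, HOXC11 and HOXD12 have counts in all 3 COMBO libraries.

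HOX proteins bind DNA with TALE partners of the PBX, MEIS and PKNOX families, and 6 of the 8 tested partners rose and 1 fell in GSK, while 5 rose and 1 fell in COMBO, beside 40.0% and 35.8% of all genes in GSK and 43.3% and 39.2% in COMBO. PBX3 rose by 0.78 in GSK, from 8.51 ± 0.575 to 14.5 ± 1.36 CPM. MEIS3 had 6 pooled counts in DMSO, 63 in GSK and 123 in COMBO (adjusted p = 1.26e-07 and 5.74e-09), and it passed the filter only through the arms in which it was high. PKNOX2 fell, by 0.92 in GSK.

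Of 23 Polycomb and Trithorax genes, which write and read the marks that silence or keep HOX genes active, 7 rose and 12 fell in GSK and 10 rose and 12 fell in COMBO. The shares of all genes were 40.0% and 35.8% in GSK and 43.3% and 39.2% in COMBO. EZH2 itself fell by 0.89 in GSK (SE 0.0575, adjusted p = 2.44e-11). CBX2, a reader of the mark, fell by 0.98. JARID2, a cofactor of the complex, rose by 1.17 (adjusted p = 6.44e-13) and KDM6B, a demethylase of the mark, by 1.10 (adjusted p = 5.50e-12).

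Of 28 noncoding RNAs of the clusters 11 were listed and 3 tested, all in HOXA and all higher in GSK and COMBO. Among all genes 40.0% were higher in GSK and 43.3% in COMBO, and 3 RNAs are too few to compare with these shares. HOXA11-AS1 went from 6.00 ± 1.27 CPM in DMSO to 19.1 ± 1.56 in GSK, a rise of 1.60 (SE 0.130, adjusted p = 9.19e-10), against 0.24 for HOXA11, with which it overlaps on the opposite strand. HOTTIP beside HOXA13 rose by 1.23 (adjusted p = 0.0158), from 0.380 CPM in DMSO and so under the filter level there, and HOTAIRM1, at the 3′ end of HOXA, by 0.80 (adjusted p = 0.00272). HOTAIR, in HOXC, was at 0.0447 to 0.283 CPM on average in the 4 arms and was not tested. Among 10 tested flanking genes 5 rose and 3 fell in GSK (40.0% and 35.8% of all genes), and 5 rose and 3 fell in GDC (20.0% and 20.0% of all genes). CALCOCO1, which flanks HOXC on the side of HOXC13, rose by 2.05 (SE 0.0757, adjusted p = 7.18e-15), and EVX1, a homeobox gene beside HOXA13, by 1.956 (SE 0.384, adjusted p = 1.23e-04) from 0.528 CPM in DMSO, which is under the filter level. CALCOCO1 rose in GDC as well, by 1.31 (adjusted p = 3.62e-10), where HOXC13 was at -0.15.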

How the data were processed

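PolyA RNA-seq reads of 12 C4.2B libraries had been aligned with STAR to hg38 and counted with HTSeq, as named in the submitters' processing notes. Their versions, the gene annotation and the strand setting were not given in the sources used here. The authors deposited raw counts per gene and library, which were used as deposited without the 5 HTSeq summary lines, and their DESeq2-normalized table was not used. All 12 libraries were fitted together in edgeR 4.0.16 (limma 3.58.1, R 4.3.3) with TMM scaling, filterByExpr and the quasi-likelihood test, with 1 coefficient per arm, and p-values were adjusted over 14189 genes by the Benjamini-Hochberg method. The filter level was 0.705 CPM. DESeq2 1.42.0, other scalings and filters, the replicate letter as a block and leaving out each library were alternatives. Silent genes were compared by pooled counts with exact 95% intervals. The procedure was tested on simulated data.

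HOX genes are named with values in each library where its mean reached 1 CPM or where it was silent in DMSO and present in each library of another arm. Up to 4 genes of each companion list are named by size of change, and EZH2 in any case. Values of 1 HOX gene and 1 companion gene are not reported here, though both count in the totals. The genes and lists were chosen with earlier results of these data known. Coordinates and exon lengths come from GENCODE and upstream sequences from RefSeq (GRCh38.p14).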

Additional observations from a re-analysis of the deposited data

Results flagged for a closer look

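HOXB13 stood out because the change with GDC-0941 differed by whether GSK126 was present. The difference between these effects on the log2 scale was -0.49 (SE 0.0676, edgeR adjusted p = 3.04e-05), with GDC against DMSO at 0.10 and COMBO against GSK at -0.39. All 3 COMBO libraries were below all 3 GSK libraries, whereas GDC and DMSO overlapped. The agents also differed in length of exposure, and its part in this difference was not tested.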

How the results depend on the processing

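Of 2677 values of single genes recomputed in 19 alternative fits, 0 changed sign with a value past the threshold, and 130 did with neither value past it. Requiring a log2 change of 1 or more in size left 0 HOX genes in GDC (3 without it), 6 in GSK (18), 8 in COMBO (17), 10 in COMBO against GDC (20), 0 in COMBO against GSK (4) and 0 in the interaction (1). Library totals gave 5 in GDC and 2 in the interaction, and the interaction had 3 with DESeq2 size factors, 4 with no filter and 3 with a mean of at least 1 CPM. Leaving out 1 library gave 1 to 4 in GDC (lowest without DMSO replicate C), 15 to 19 in GSK, 17 to 18 in COMBO, 19 to 20 in COMBO against GDC, 3 to 7 in COMBO against GSK (highest without COMBO replicate B) and 1 to 3 in the interaction. The replicate block gave 2, 18, 18, 20, 4 and 3 in the same order. Deviations of same-letter libraries correlated at -0.08 to 0.19 and those of other-letter libraries at -0.15 to 0.10. The ranges overlap, so whether the letters mark pairs cannot be told from them. Counting as silent only genes at 0 in DMSO left 8 in place of 12. The cause of these shifts was not tested. Depth limits the silent genes most in GSK, the shallowest arm.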
